A study of Homo sapiens with 10 samples.

Results

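The Hippo-YAP pathway and its target genes were examined in T47D cells, an established human luminal breast cancer line, as a list of 39 genes out of 19695 in the 2 deposited count tables. The list held 30 pathway components and 9 target genes and was set by gene symbol. The components were 6 transcriptional effectors, 7 core kinases or adaptors, 10 upstream regulators and 7 junctional or cytoplasmic binding partners. RNA-seq covered 6 libraries of T47D cells taken 72 h after transfection, 2 each with control siRNA, siRNA against *TRPS1* and siRNA against *CHD4*. TRPS1 is an atypical GATA factor that represses transcription, and CHD4 is the chromatin-remodelling ATPase of the NuRD complex. The labels and the RNA interference methods give an siRNA for *CHD4*, whereas the RNA-seq methods give an shRNA. ChIP-seq with an antibody against TRPS1 in T47D cells gave a list of 1844 peaks called against input.

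The Hippo pathway is a kinase cascade that restrains cell growth. STK3 and STK4, the mammalian Hippo kinases, act with the adaptor SAV1 on LATS1 and LATS2, which act with MOB1 and phosphorylate the coactivators YAP1 and WWTR1 (TAZ), so that these stay in the cytoplasm. When the cascade is off, YAP1 and WWTR1 enter the nucleus, bind TEAD factors and switch on genes such as *CTGF*, *CYR61* and *ANKRD1*, and in mammary epithelium this output is tied to cell density, stiffness and junctions.

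Totals ranged from 10333138 to 14668358 counts per library, and 3 counts, used as the detection floor, equalled 0.197 to 0.288 normalized CPM. Levels are given as normalized CPM, counts divided by library size on 1 TMM scale over the 6 libraries, and they are not set against each other between genes because no exon lengths were used. *TRPS1* stood at 1448 and 2274 CPM with control siRNA and at 1169 and 723 CPM with *TRPS1* siRNA, a log2 fold change of −0.97 (SE 0.39, unadjusted p = 0.0459). *CHD4* stood at 301 and 286 CPM with control siRNA and at 96.0 and 54.4 CPM with *CHD4* siRNA, a log2 fold change of −1.96 (SE 0.42, unadjusted p = 0.00186). Control replicate 1 stood apart, with correlations of log2 CPM of 0.880 to 0.898 with the other libraries, against 0.949 to 0.978 among those. All 8 luminal markers were detected, and their summed level, most of it from *KRT8*, *KRT18* and *KRT19*, was 11343 to 14675 CPM in the controls, 6106 to 6142 CPM with *TRPS1* siRNA and 5199 to 6982 CPM with *CHD4* siRNA. At the study's threshold *KRT8* and *KRT19* fell in both silenced groups and *KRT18* fell upon *CHD4* silencing, and the other 5 luminal markers were not called. The part of these differences in the results below was not tested, and in bulk RNA fewer cells of a kind and less RNA per cell cannot be told apart. Endothelial markers summed to 0.281 CPM at most, fibroblast markers, nearly all *COL1A1*, to 61.1 to 157 CPM over all libraries, and leukocyte markers, mainly *CD68*, to 1.47 to 1.97 CPM in the controls and at least 2.81 CPM in the silenced libraries.

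Calls among the members are given beside the shares of all tested genes. Against control siRNA 5 of the 39 members reached the filter in neither comparison. Of the 34 members tested, which had over 2 CPM in 2 or more libraries of the comparison, *AMOTL1* and *FAT1* rose and *CRIM1* fell upon *TRPS1* silencing at the study's threshold, a fold change over 2 with an unadjusted p under 0.05. That is 2 higher, against 2.70% of all tested genes, and 1 lower, against 3.17%. Upon *CHD4* silencing 33 were tested, *AMOTL1* and *AXL* rose, 2 genes against a background of 2.60%, and 0 fell in edgeR's quasi-likelihood test, against 2.85%. No member passed a Benjamini-Hochberg adjusted p of 0.05 in edgeR's quasi-likelihood test upon silencing *TRPS1* or *CHD4*, and neither did any other gene, 0% of those tested in each comparison. At an unadjusted p under 0.05 there were 3 members for each silenced gene, with backgrounds of 6.98% for *TRPS1* and 5.95% for *CHD4*. DESeq2 and edgeR's likelihood ratio test also gave 0 members at the adjusted threshold in both comparisons. Of all tested genes, DESeq2 gave 0.25% for *TRPS1* and 0.39% for *CHD4*, and the likelihood ratio test gave 0.26% and 0.45%. With shares this small, 0 of 34 or 33 members says nothing particular about the list.

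The spread between libraries was wide against these changes. Silenced and control libraries did not overlap for 15 of the 34 tested members upon *TRPS1* silencing, against 44.1% of all tested genes, and for 13 of the 33 upon *CHD4* silencing, against 39.8%. The median log2 fold change of the members was −0.09 in both comparisons, and that of all tested genes was −0.02 in both. The comparisons share their control libraries, so that control replicate 1 enters both. The labels do not say that replicates were separate cultures, so p-values measure only the spread between these libraries.

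**Figure D1:**
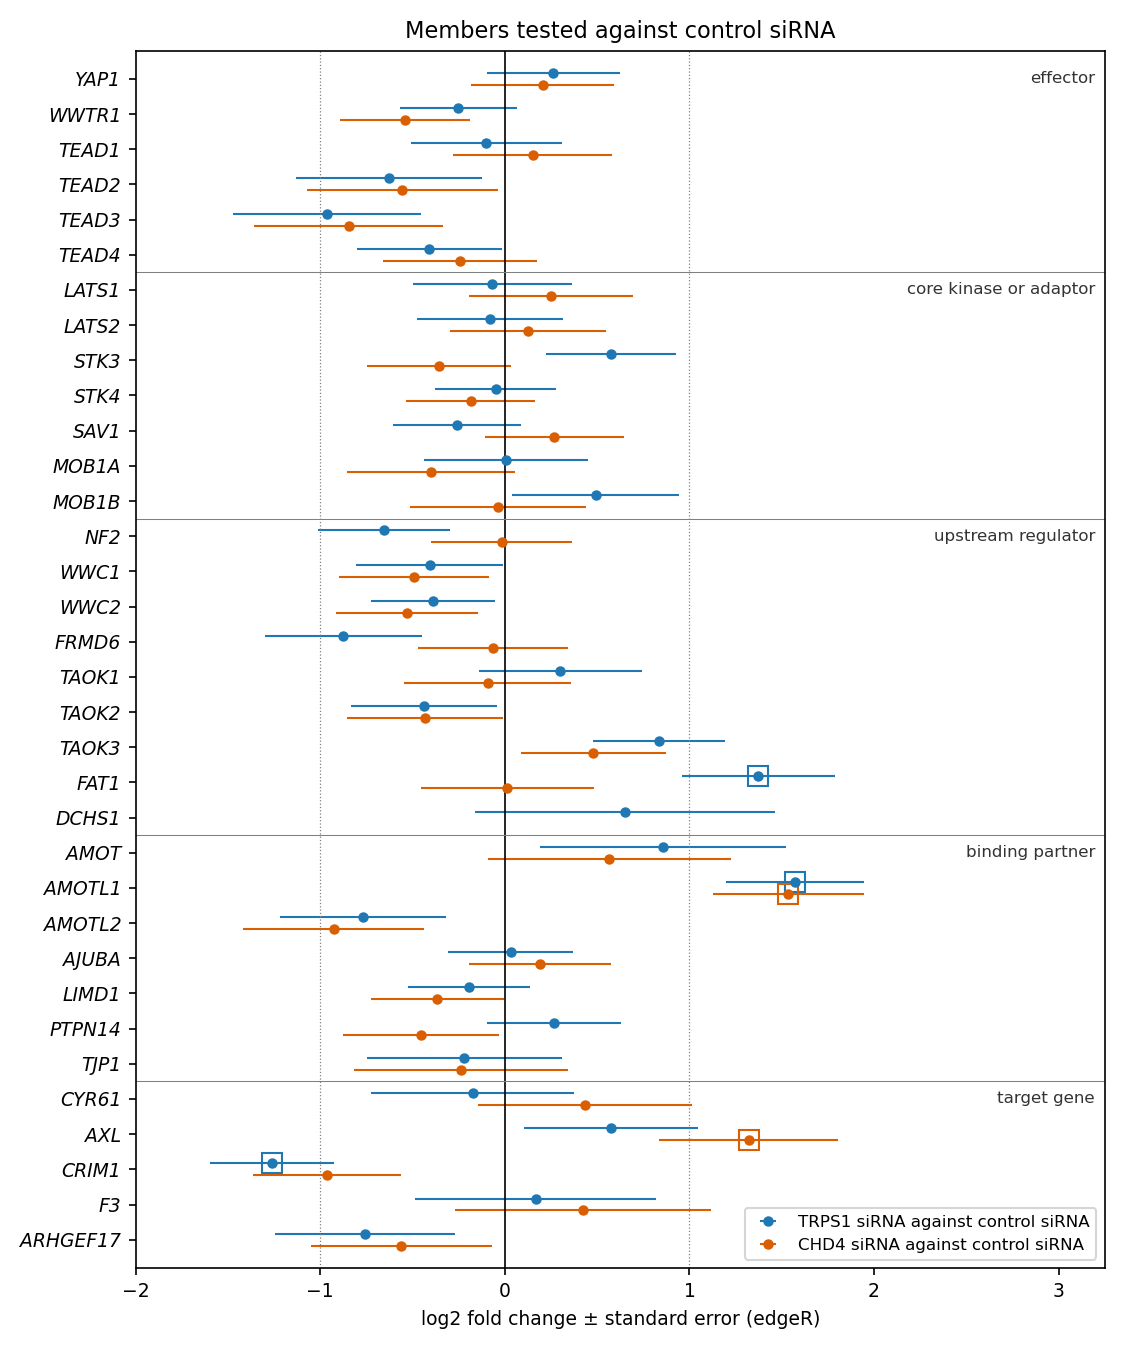
Log2 fold change with its standard error (x axis) for each tested member (y axis, grouped by role), upon *TRPS1* silencing (blue, n = 2 against 2) and *CHD4* silencing (orange, n = 2 against 2), with squares around the genes past the study's threshold. All members without a square lie between −1 and 1, *AMOTL1* lies above 1 in both comparisons, and *FAT1*, *AXL* and *CRIM1* carry a square in 1 of them.

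None of the 6 effectors passed the study's threshold in either comparison with control siRNA. Of all tested genes, 5.87% passed it upon *TRPS1* silencing and 5.45% upon *CHD4* silencing. *YAP1*, the coactivator at the end of the cascade, stood at 162 and 261 CPM with control siRNA, at 255 and 251 CPM with *TRPS1* siRNA, and at 253 and 232 CPM with *CHD4* siRNA. All 4 silenced libraries lay between the controls. The log2 fold change was 0.26 upon *TRPS1* silencing (95% interval −0.61 to 1.13) and 0.20 upon *CHD4* silencing (−0.70 to 1.11). *WWTR1*, the coactivator paralogous to *YAP1*, stood at 122 and 119 CPM with control siRNA, at 94.9 and 106 CPM with *TRPS1* siRNA and at 80.3 and 84.2 CPM with *CHD4* siRNA. Every silenced library lay below both controls, and the log2 fold changes of −0.25 (SE 0.32) and −0.54 (SE 0.35) did not pass the test, with adjusted p = 0.799 and 0.798 in edgeR's quasi-likelihood test.

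The 4 TEAD genes encode the DNA-binding partners of YAP1 and WWTR1. *TEAD2* read 90.0 and 34.6 CPM with control siRNA, 40.6 and 39.8 CPM with *TRPS1* siRNA, and 38.7 and 45.6 CPM with *CHD4* siRNA. *TEAD3* read 158 and 58.4 CPM with control siRNA, 56.1 and 54.4 CPM with *TRPS1* siRNA, and 62.7 and 56.8 CPM with *CHD4* siRNA. *TEAD4* read 29.5 and 20.2 CPM with control siRNA, 17.4 and 19.9 CPM with *TRPS1* siRNA, and 21.1 and 20.7 CPM with *CHD4* siRNA. For these 3 genes control replicate 1 was the highest library and control replicate 2 lay close to the silenced ones. *TEAD1* went the other way, with 80.0 and 155 CPM with control siRNA, 109 and 109 CPM with *TRPS1* siRNA, and 140 and 119 CPM with *CHD4* siRNA. For *TEAD3* the log2 fold change upon *TRPS1* silencing was −0.96 (SE 0.51). It became −0.07 without control replicate 1 and −1.51 without control replicate 2, fits with 1 control library, where more of all genes were called too. Control replicate 1 was the highest or lowest of the 6 libraries for 22 of the 36 members tested on all libraries, 61.1%, and for 69.7% of all genes.

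**Figure D2:**
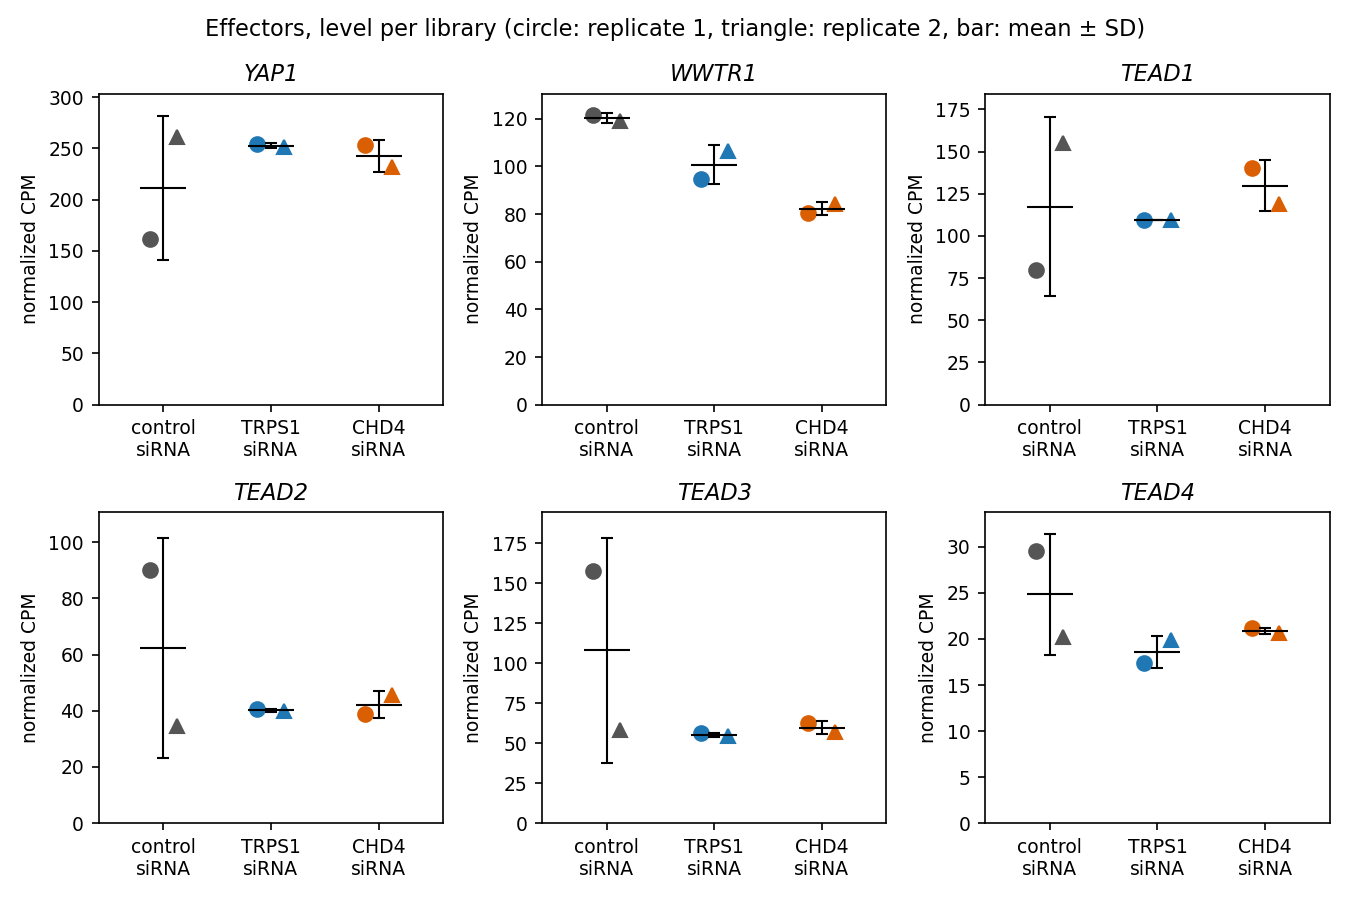
Normalized CPM (y axis) of the 6 effector genes in each library (circle for replicate 1, triangle for replicate 2) of control, *TRPS1* and *CHD4* siRNA (x axis), with the mean ± SD of each group (n = 2). Control replicate 1 lies above every other library for *TEAD2*, *TEAD3* and *TEAD4* and below every other library for *YAP1* and *TEAD1*.

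The 7 core kinases and adaptors also held no gene past the study's threshold against control siRNA, which 5.87% and 5.45% of all tested genes passed. *LATS1*, a kinase that phosphorylates YAP1, stood at 52.0 and 107 CPM with control siRNA, at 80.1 and 70.8 CPM with *TRPS1* siRNA, and at 88.9 and 99.0 CPM with *CHD4* siRNA. *LATS2*, its paralogue, stood at 48.8 and 29.0 CPM with control siRNA, at 36.4 and 36.9 CPM with *TRPS1* siRNA and at 43.5 and 40.8 CPM with *CHD4* siRNA. For both LATS genes the controls enclosed all 4 silenced libraries. Among the 7, the log2 fold changes ran from −0.26 to 0.57 upon *TRPS1* silencing and from −0.40 to 0.27 upon *CHD4* silencing.

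*STK3*, which encodes the kinase MST2, had the highest of these values upon *TRPS1* silencing, and it is described here after its values were seen. *STK3* read 26.2 and 28.1 CPM with control siRNA, 36.9 and 43.7 CPM with *TRPS1* siRNA, and 21.6 and 20.6 CPM with *CHD4* siRNA. The 3 groups did not overlap, with the *TRPS1* siRNA libraries above and the *CHD4* siRNA libraries below the controls. Neither difference from the controls passed the test, at log2 fold changes of 0.57 (SE 0.35) and −0.36 (SE 0.39), with adjusted p = 0.670 and 0.840 in edgeR's quasi-likelihood test. *STK4*, which encodes the kinase MST1, read 166 and 192 CPM with control siRNA, 152 and 192 CPM with *TRPS1* siRNA, and 153 and 160 CPM with *CHD4* siRNA.

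Of the 10 upstream regulators, *FAT1* was the only one past the threshold against control siRNA, and only the *TRPS1* comparison called it. That is 1 of 9 tested, against 5.87% of all tested genes, and 0 of 8 upon *CHD4* silencing, against 5.45%. *FAT1* encodes a giant atypical cadherin that feeds into the cascade at the cell surface. *FAT1* read 12.1 and 16.7 CPM with control siRNA, 44.8 and 29.8 CPM with *TRPS1* siRNA, and 17.4 and 11.6 CPM with *CHD4* siRNA. Both *TRPS1* siRNA libraries lay above the other 4, and the *CHD4* siRNA libraries overlapped the controls. *FAT1* rose by a log2 fold change of 1.37 upon *TRPS1* silencing (SE 0.41, 2.59-fold, unadjusted p = 0.0144, adjusted p = 0.659 in edgeR's quasi-likelihood test), against 0.01 upon *CHD4* silencing (SE 0.47, adjusted p = 0.995). The call was lost without *TRPS1* siRNA replicate 1 (1.07) and without replicate 2 (1.65), and fewer of all genes were called there too. *FAT1* overlaps another annotated gene, and whether the counting used strand is not stated, so reads of the pair cannot be told apart. The same limit applies to other members that overlap annotated genes, among them *CRIM1*, *AXL* and *STK3*.

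*FAT4* and *DCHS1*, a cadherin receptor and ligand pair of the same family, were near the filter. *FAT4* had 1 and 7 counts with control siRNA, 36 and 17 counts with *TRPS1* siRNA, and 23 and 20 counts with *CHD4* siRNA. It did not reach the filter against control siRNA, and every silenced library exceeded both controls. The ratio of summed counts, scaled for depth, was 6.94 upon *TRPS1* silencing (95% interval 3.28 to 16.9) and 6.24 upon *CHD4* silencing (2.90 to 15.4), where the intervals cover counting error only. *DCHS1* read 2.72 and 1.13 CPM with control siRNA, 4.52 and 1.58 CPM with *TRPS1* siRNA, and 0.935 and 1.61 CPM with *CHD4* siRNA, groups that overlapped.

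*WWC2*, which encodes a paralogue of the KIBRA scaffold that promotes LATS activity, read 120 and 161 CPM with control siRNA, 110 and 103 CPM with *TRPS1* siRNA, and 110 and 82.9 CPM with *CHD4* siRNA. All silenced libraries lay below both controls, at log2 fold changes of −0.39 (SE 0.34) and −0.53 (SE 0.38) that did not pass the test. The other upstream regulators, *NF2*, *WWC1*, *FRMD6* and the TAO kinases *TAOK1*, *TAOK2* and *TAOK3*, were not called, with log2 fold changes from −0.88 for *FRMD6* to 0.84 for *TAOK3* upon *TRPS1* silencing. Upon *CHD4* silencing these 6 lay between −0.49 for *WWC1* and 0.48 for *TAOK3*.

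*AMOTL1* was the member that passed the threshold upon silencing of both genes. AMOTL1 is an angiomotin family scaffold of tight junctions that binds YAP1 and holds it outside the nucleus. *AMOTL1* had 192 and 238 counts with control siRNA, 545 and 651 counts with *TRPS1* siRNA, and 562 and 499 counts with *CHD4* siRNA. In CPM these were 14.1 and 18.0 with control siRNA, 52.4 and 42.8 with *TRPS1* siRNA and 52.6 and 40.1 with *CHD4* siRNA, so the silenced libraries all stood well above the controls. *AMOTL1* rose by 1.57 on the log2 scale upon *TRPS1* silencing (SE 0.37, 2.97-fold, unadjusted p = 0.00489, adjusted p = 0.659 in edgeR's quasi-likelihood test). Upon *CHD4* silencing it rose by 1.54 (SE 0.41, 2.90-fold, unadjusted p = 0.00646, adjusted p = 0.792 in the same test).

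Leaving out control replicate 1 gave log2 fold changes of 1.41 and 1.38 for *AMOTL1*, both still past the study's threshold. The calls were lost without *TRPS1* siRNA replicate 1 (1.44) and without *CHD4* siRNA replicate 1 (1.35). In both cases fewer of all genes were called too. *AMOTL1* overlaps the antisense gene *PIWIL4-AS1* in RefSeq, and reads of the pair cannot be told apart without strand. The study's own primers for this gene are shown because the study lists them for RT-qPCR and ChIP-qPCR. Its text and captions name no assay of *AMOTL1*. The primers were not placed on the genome here, and no part is capitalized. AMOTL1 RT-qPCR forward and reverse, then AMOTL1 ChIP-qPCR forward and reverse, read as follows.
AMOTL1-QPCR-F: gcagacaggaaaactgagga
AMOTL1-QPCR-R: aaatgtggtgggaacagaga
AMOTL1-Qchip-F: aataagtaattgtttggata
AMOTL1-Qchip-R: aacatacaatgagttgggac

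Neither paralogue of *AMOTL1* passed the study's threshold against control siRNA, and their log2 fold changes had opposite signs. *AMOTL2*, also a junctional scaffold that binds YAP1, read 321 and 147 CPM with control siRNA, 153 and 121 CPM with *TRPS1* siRNA, and 152 and 92.5 CPM with *CHD4* siRNA. Control replicate 1 was more than 2-fold above every other library, and the log2 fold changes of −0.77 (SE 0.45) and −0.93 (SE 0.49) did not pass the test. Without control replicate 2 they were −1.22 and −1.38, in fits with 1 control library, where more of all genes were called too. *AMOT*, the founding angiomotin, read 3.01 and 3.02 CPM with control siRNA and 7.88 and 3.09 CPM with *TRPS1* siRNA. With *CHD4* siRNA it read 5.61 and 3.30 CPM. Every silenced library lay above both controls, replicate 2 of either silenced group only narrowly. The log2 fold changes of 0.86 (SE 0.66) and 0.57 (SE 0.66) did not pass the test either.

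*PTPN14*, a phosphatase that binds YAP1 in the cytoplasm, read 278 and 457 CPM with control siRNA, 466 and 414 CPM with *TRPS1* siRNA, and 328 and 206 CPM with *CHD4* siRNA. The controls overlapped both silenced groups, and the log2 fold changes of 0.26 (SE 0.36) and −0.45 (SE 0.42) did not pass the test. The LIM-domain proteins AJUBA and LIMD1, which bind LATS kinases, and the junction protein TJP1 had log2 fold changes between −0.37 and 0.19 over both comparisons, and none was called.

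**Figure D3:**
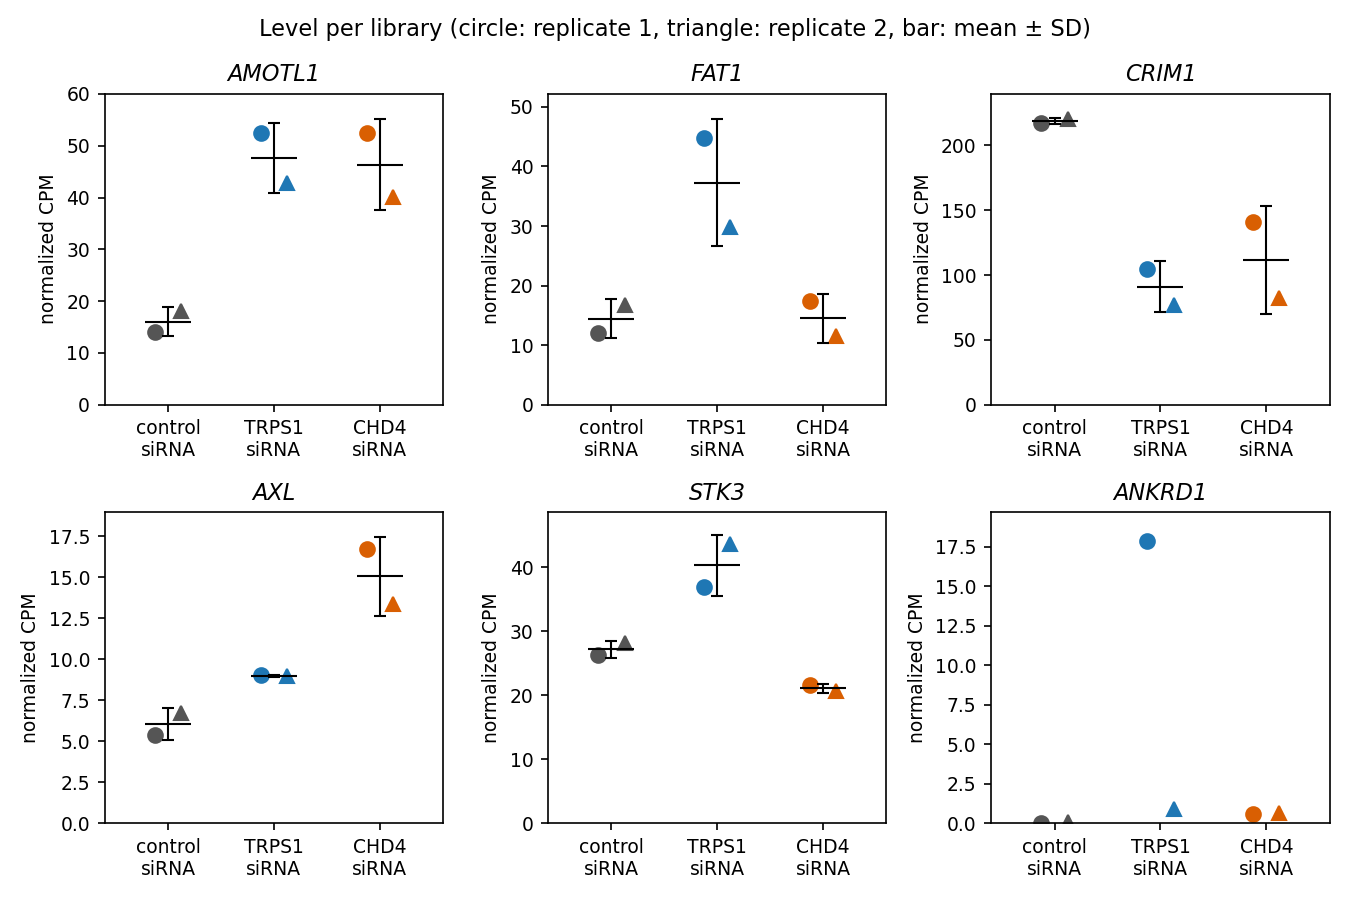
Normalized CPM (y axis) of *AMOTL1*, *FAT1*, *CRIM1*, *AXL*, *STK3* and *ANKRD1* in each library (circle for replicate 1, triangle for replicate 2) of control, *TRPS1* and *CHD4* siRNA (x axis), with the mean ± SD of each group (n = 2, not drawn for *ANKRD1*). All 4 silenced libraries lie above the controls for *AMOTL1* and below them for *CRIM1*, and a single *TRPS1* siRNA library carries nearly all the *ANKRD1* signal.

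Against control siRNA 5 of the 9 target genes passed the filter, with median log2 fold changes of −0.17 upon *TRPS1* silencing and 0.42 upon *CHD4* silencing. At the study's threshold 1 of these 5 was called in each comparison, *CRIM1* upon *TRPS1* silencing and *AXL* upon *CHD4* silencing. The shares of all tested genes called were 5.87% and 5.45%. *CRIM1* was lower in every silenced library and *AXL* higher in every one. The classical targets *CYR61* and *CTGF* showed no separation between groups.

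*CRIM1* encodes a membrane protein that binds bone morphogenetic proteins. *CRIM1* read 217 and 220 CPM with control siRNA, 105 and 77.3 CPM with *TRPS1* siRNA, and 141 and 82.2 CPM with *CHD4* siRNA. The 2 controls differed little and lay above all silenced libraries. *CRIM1* fell by 1.26 on the log2 scale upon *TRPS1* silencing (SE 0.34, 2.40-fold lower, unadjusted p = 0.00839, adjusted p = 0.659 in edgeR's quasi-likelihood test). Upon *CHD4* silencing the log2 fold change was −0.96 (SE 0.40, 1.95-fold lower, unadjusted p = 0.0457), just short of the fold threshold. The call upon *TRPS1* silencing was lost without *TRPS1* siRNA replicate 1 (−1.48) and without replicate 2 (−1.05). Fewer of all genes were called in these 2 fits too. Without control replicate 1 the log2 fold change upon *TRPS1* silencing was −1.27.

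*AXL* encodes a receptor tyrosine kinase of the TAM family. *AXL* read 5.36 and 6.73 CPM with control siRNA, 9.03 and 8.94 CPM with *TRPS1* siRNA, and 16.7 and 13.3 CPM with *CHD4* siRNA. The 3 groups did not overlap, and the *CHD4* siRNA libraries were highest. *AXL* rose by 1.32 on the log2 scale upon *CHD4* silencing (SE 0.48, 2.50-fold, unadjusted p = 0.0277, adjusted p = 0.792 in edgeR's quasi-likelihood test). Upon *TRPS1* silencing the value was 0.58 (SE 0.47, adjusted p = 0.715), which did not pass the test. The call upon *CHD4* silencing was lost without *CHD4* siRNA replicate 1 (1.17) and without replicate 2 (1.50). Fewer of all genes were called in these fits too.

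*ANKRD1*, a nuclear ankyrin-repeat protein gene and standard readout of YAP1, was almost silent in these cells but for a single library. *ANKRD1* had 0 and 1 counts with control siRNA, 186 and 14 counts with *TRPS1* siRNA, and 6 and 8 counts with *CHD4* siRNA. *TRPS1* siRNA replicate 1 held nearly all the reads, and *TRPS1* siRNA replicate 2 lay near the *CHD4* siRNA libraries. Scaled for depth, the summed counts were 210 times those of the controls upon *TRPS1* silencing (95% interval 37.2 to 8321) and 16.2 times upon *CHD4* silencing (2.47 to 687), intervals that cover counting error only and rest on 1 control count. *ANKRD1* did not pass the filter, so it was not tested. In that same library *VIM*, the vimentin gene of mesenchymal cells, read 180 counts, against 12 to 38 in the other 5. The basal or mesenchymal markers summed to 18.9 CPM there, of which *VIM* made 17.3 CPM, and to 3.63 CPM at most elsewhere. The part of that in the *ANKRD1* reading was not tested.

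*CYR61*, which encodes the matricellular protein CCN1, read 64.2 and 23.0 CPM with control siRNA, 46.3 and 30.8 CPM with *TRPS1* siRNA, and 76.9 and 40.3 CPM with *CHD4* siRNA. *CTGF*, which encodes its relative CCN2, had 29 and 15 counts with control siRNA, 29 and 20 counts with *TRPS1* siRNA, and 43 and 14 counts with *CHD4* siRNA. In both genes replicate 1 read higher than replicate 2 in all 3 groups, and the groups overlapped. *ARHGEF17* read 426 CPM in control replicate 1 and 158 to 221 CPM in the other 5 libraries. *F3*, the tissue factor gene, ranged from 1.83 to 3.05 CPM over all libraries. *NT5E*, which encodes the ecto-nucleotidase CD73, had 1 to 17 counts, and *DLC1* had 3 to 14 counts, with groups that overlapped in both genes.

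Sequences before the start of the target genes are shown because they hold the letters to which TEAD factors bind. GGAATG, searched on both strands of the RefSeq promoter entries (GRCh38.p14, 300 bases that lie mostly before the start), was found for *CTGF*, *ANKRD1* and *AXL* of the 5 target genes with an entry. The windows read 5′ to 3′ along the gene, with only the central GGAATG or its reverse complement in capitals. A match that is central to an overlapping window stays in lower case. They lie at chr6:131951526-131951551, chr6:131951461-131951486 and chr6:131951452-131951477 for *CTGF* (minus strand), where the last 2 overlap. They lie at chr10:90921292-90921317 and chr10:90921200-90921225 for *ANKRD1* (minus strand), and at chr19:41226533-41226558 for *AXL* (plus strand), which lies within the full span of that gene.
CTGF first: ttcagacggaGGAATGctgagtgtca
CTGF second: aaggtggggaGGAATGcgaggaatgt
CTGF last: aggaatgcgaGGAATGtccctgtttg
ANKRD1 first: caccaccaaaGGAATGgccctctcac
ANKRD1 last: cactgagtctGGAATGaaaattcacc
AXL: gactttgcacCATTCCactccctccg

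Compared directly, the *CHD4* siRNA and *TRPS1* siRNA libraries differed in 1 member at the study's threshold. Of 35 members tested, *FAT1* was lower with *CHD4* siRNA at the study's threshold, 1 gene against 1.56% of all tested genes, and 0 were higher in edgeR's quasi-likelihood test, against 2.12%. At an unadjusted p under 0.05 there were 10 members, against 15.4% of all tested genes. No member passed an adjusted p of 0.05 in that test without a replicate term, nor did any other gene (0%). DESeq2 and the likelihood ratio test each gave 2, *FAT1* and *STK3*, against 3.47% and 4.34% of all tested genes. Same-numbered libraries of these groups deviated together (correlation 0.646 over genes). With a replicate block the quasi-likelihood test gave 13 members, against 25.7% of all tested genes. What a replicate number shares is not stated by the labels. Groups did not overlap for 17 of the 35 members, against 46.9% of all tested genes.

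*FAT1* was 2.56-fold lower with *CHD4* siRNA than with *TRPS1* siRNA, a log2 difference of −1.35 (SE 0.30, unadjusted p = 0.00408, adjusted p = 0.137 in edgeR's quasi-likelihood test). Its call held without each of the 4 libraries in turn, at −1.04 to −1.68. *STK3* was lower by 1.90-fold (log2 difference −0.93, SE 0.18, unadjusted p = 0.0021, adjusted p = 0.115), short of the fold threshold. *AMOTL1* gave −0.03 (95% interval −0.54 to 0.48). *CRIM1* gave 0.31 (95% interval −0.42 to 1.03) and *AXL* 0.75 (0.18 to 1.32).

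The core kinases and adaptors were spread to both sides in this comparison, and the following genes were named after their values were seen. Groups did not overlap for 6 of these 7 genes, against 46.9% of all tested genes, of which 3 were higher and 3 lower with *CHD4* siRNA. *SAV1*, the adaptor of the Hippo kinases, read 37.9 and 44.5 CPM with *TRPS1* siRNA and 61.6 and 56.9 CPM with *CHD4* siRNA. *MOB1A* and *MOB1B*, the cofactors of the LATS kinases, were lower with *CHD4* siRNA, by log2 differences of −0.40 (SE 0.15) and −0.53 (SE 0.17). *NF2*, which encodes the membrane-linked scaffold merlin, read 62.5 and 52.7 CPM with *TRPS1* siRNA and 83.0 and 95.6 CPM with *CHD4* siRNA, with 107 and 74.9 CPM in the controls. *FRMD6*, a related FERM-domain gene, read 8.46 and 13.2 CPM with *TRPS1* siRNA and 18.7 and 19.2 CPM with *CHD4* siRNA. These 5 genes passed an unadjusted p of 0.05 and none a fold of 2. The lowest adjusted p among them was 0.177 in edgeR's quasi-likelihood test, for *NF2*. *PTPN14* and *TAOK1* also passed an unadjusted p of 0.05, lower with *CHD4* siRNA by log2 differences of −0.71 (SE 0.25) and −0.39 (SE 0.15).

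Pathway genes outside the list were counted in the same way. Of 47 such genes, 36 were tested in each comparison with control siRNA. Upon *TRPS1* silencing 1 was called at the study's threshold, a lower one, against 3.17% of all tested genes, and the median log2 fold change was 0.04. It was *MAP4K2*, a kinase of the MAP4K family that acts beside STK3 and STK4, at 99.6 and 43.5 CPM with control siRNA and 16.4 and 13.8 CPM with *TRPS1* siRNA (log2 fold change −2.24, SE 0.50). Upon *CHD4* silencing 1 was called, a higher one, against 2.60% of all tested genes, and the median was −0.19. It was *FAT2*, an atypical cadherin gene, at 14.8 and 18.8 CPM with control siRNA and 41.5 and 45.3 CPM with *CHD4* siRNA (log2 fold change 1.38, SE 0.40).

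A second outside list held 15 more genes that YAP1 and TEAD factors are known to switch on. Upon *TRPS1* silencing 11 were tested, and at the study's threshold 3 rose, against 2.70% of all tested genes, and 1 fell, against 3.17%. Upon *CHD4* silencing 12 were tested and 3 were called, all of them higher, against 2.60%. *CCDC80*, a secreted matrix protein gene, rose in both, from 1.32 and 0.983 CPM with control siRNA to 5.86 and 7.63 CPM with *TRPS1* siRNA and 11.4 and 8.36 CPM with *CHD4* siRNA. *TGFB2*, a growth factor gene, had 1 and 9 counts with control siRNA, 66 and 32 counts with *TRPS1* siRNA, and 27 and 26 counts with *CHD4* siRNA. *CCDC80* and *TGFB2* lay under 2 CPM in the controls and passed the filter only through the silenced libraries, where they are high, so nothing is read from the counts of this list.

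*GADD45A*, a stress response gene, rose upon *TRPS1* silencing, from 3.16 and 4.46 CPM to 12.9 and 8.62 CPM. *MYOF*, the myoferlin gene, fell upon *TRPS1* silencing, from 605 and 529 CPM to 256 and 168 CPM.

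TRPS1 peaks lay in or within 100 kb of 8 of the 39 members, 20.5%, against 22.4% of the 18903 genes with coordinates. These were 7 of the 30 components and 1 of the 9 target genes, with 11 peaks in all. The median member is longer than the median gene, 88.6 kb against 26.0 kb, and a longer gene has a wider window. Peaks inside the gene body were found for 2 members, 5.13%, against 4.50% of all genes. Positions are those of the deposited list (hg38) and of RefSeq genes (GRCh38.p14), and exon positions were not used here.

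The *AMOTL1* peak lay inside the gene at chr11:94838140-94838524, 132 kb from the first base of the gene, with the gene at chr11:94706460-94876748 on the plus strand. *AMOTL1* thus held a TRPS1 peak and was called upon silencing of either gene, in comparisons that share their controls. The share of all genes with both was not counted, so nothing is read from this. *PTPN14*, at chr1:214348700-214551602 on the minus strand, held a peak at chr1:214377843-214378277, 173 kb from its start, and had another peak 85.6 kb before its start, and it was not called. *FAT1*, which rose upon *TRPS1* silencing, had peaks 35.9 kb and 80.5 kb before its start, and other annotated genes lay nearer to both.

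The remaining peaks fell near genes that were not called upon *TRPS1* silencing. *STK4* had a peak 5.77 kb before its start, which lay nearer to *TOMM34*. *AMOTL2* had 1 peak 98.5 kb before its start, *DCHS1* 1 peak 50.1 kb away, and *AXL* 1 peak 48.5 kb past its end, inside *CCDC97*. *CRIM1*, which fell, had no peak in the window. Just outside the window lay the nearest peaks to *NF2*, *YAP1* and *TEAD3*, at 101, 102 and 105 kb. The count of members was 4 with a 10 kb window, against 7.44% of all genes, and 2 when each peak was given only to its nearest gene, against 5.68%.

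**Figure D4:**
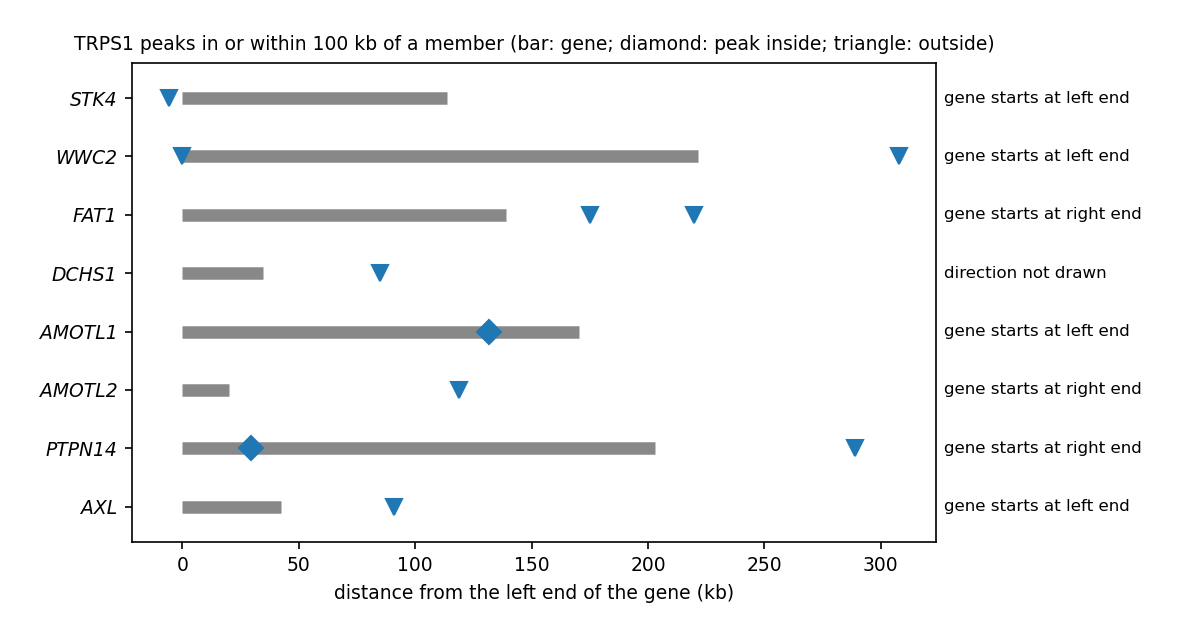
Distance in kb from the left end of each gene on the chromosome (x axis) for the 8 members (y axis) with a TRPS1 peak in the gene or within 100 kb, with the gene as a grey bar and peaks as diamonds (inside) or triangles (outside). Peaks lie inside *AMOTL1* and *PTPN14* and next to the start of *WWC2*.

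*WWC2* had the peak closest to a start, at chr4:183098830-183099117, which ended 140 bases before the RefSeq start and lay over the antisense gene *WWC2-AS2*. A second peak lay 86.4 kb past its end. The stretch of the *WWC2* promoter entry under the first peak is shown, since it is the only promoter sequence of a member that a peak covered. It spans chr4:183099007-183099117 (GRCh38.p14, plus strand), 111 bases with a GC content of 68.5%. It holds 0 GATA-type elements on either strand, the letters GATAA or GATAG after an adenine or a thymine, and 2 copies of GGAATG, which are in capitals.
WWC2 promoter: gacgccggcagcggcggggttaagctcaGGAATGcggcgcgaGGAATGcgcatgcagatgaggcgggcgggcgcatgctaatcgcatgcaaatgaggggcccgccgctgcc

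Promoter letters were also counted for the 29 members with a RefSeq promoter entry of 300 bases. At least 1 GATA-type element stood in 7 of them, 24.1%, against 29.1% of all 27305 genes with an entry. These were *AJUBA*, *AMOTL2*, *ANKRD1*, *LATS2*, *TAOK3*, *TEAD2* and *WWTR1*. GGAATG stood in 10, 34.5%, against 16.7% of all genes, namely *AJUBA*, *AMOTL2*, *ANKRD1*, *AXL*, *CTGF*, *LATS2*, *PTPN14*, *TAOK3*, *WWC2* and *YAP1*. A match is only a run of letters in this window, and the *AMOTL1* entry held neither kind.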

How the data were processed

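RNA-seq libraries of rRNA-depleted total RNA from T47D cells (control, *TRPS1* and *CHD4* siRNA, 2 each, 72 h) and TRPS1 ChIP-seq libraries were grouped by their labels. After trimming, the authors mapped RNA-seq reads with STAR and summed them per gene with HTSeq 0.9.0, and the deposited counts are whole numbers without normalization. The annotation and the strand setting are not given in the sources used here. The authors aligned ChIP-seq reads with BWA 0.7.12-r1039 and called peaks with MACS2 2.1.1, and the deposited peak list holds positions only, with no score, so the depth behind a peak is unknown. The submitters' processing notes name hg38 and CASAVA 1.8.

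The 2 count tables held 18984 and 18973 genes, and their control columns were identical. Each silenced group was compared with the controls, and both with each other, in edgeR 4.0.16 (R 4.3.3). The filter and scaling follow the study's methods, which name no test. The filter kept genes with over 2 CPM in 2 or more libraries of a comparison. TMM factors set the scale, and all kept genes entered the quasi-likelihood test, with Benjamini-Hochberg adjustment over all of them. Standard errors were derived from the log2 fold change and its F statistic, and 95% intervals of log2 fold changes use the test's own degrees of freedom. Genes under the filter are given by their counts, with exact 95% intervals for the ratio of summed counts, which cover counting error only. Alternatives were the likelihood ratio test, DESeq2 1.42.0, other scalings and filters, another prior count, all libraries in 1 fit, a replicate block, each replicate left out, and other ways to assign peaks. *CYR61* and *CTGF* are listed under these older symbols, and 18903 gene symbols matched the RefSeq table of GRCh38.p14, 1110 of them by synonym.

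The members and lists were chosen with earlier results of these data known. Values in every library are given for members called in any comparison, members with a peak within 100 kb, the effectors, the LATS kinases, *CYR61*, *CTGF* and *ANKRD1*, and other members by counts and ranges. The values of 1 called gene outside the members are not reported here. No columns of values were left unmapped. Figures were drawn with matplotlib 3.10.9.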

Additional observations from a re-analysis of the deposited data

How the results depend on the processing

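With 2 libraries a group, single libraries decided which members were called. In the comparisons with control siRNA this held over all genes. Fewer genes were called without a silenced library and more without a control library, so a lost call is not particular to a member. Counts of members at the study's threshold ran from 0 to 8 upon *TRPS1* silencing and from 0 to 6 upon *CHD4* silencing as each replicate was left out. They were 0 without *TRPS1* siRNA replicate 1 and without *CHD4* siRNA replicate 1, 1 (*AMOTL1*) without replicate 2 of either, and 8 and 6 without control replicate 2, where 33.6% and 31.0% of all genes passed. The counts at an adjusted p under 0.05 ran from 0 to 16 and from 0 to 8, with 16 and 8 without control replicate 2, where 47.4% and 30.3% of all genes passed, and 2 (*AMOTL1* and *CRIM1*) upon *TRPS1* silencing without control replicate 1. In the direct comparison the count was 2 with each library left out in turn, and 0 to 1 at the adjusted threshold. Without a filter on low counts, 5 members were called at the study's threshold upon *TRPS1* silencing, adding *ANKRD1* and *FAT4*. The share of all genes called in that fit was 7.16%. In the direct comparison 2 members were called without the filter, against 3.77% of all genes. The likelihood ratio test and DESeq2 each gave 2 at the adjusted threshold in the direct comparison, and the replicate block gave 13, against 4.34%, 3.47% and 25.7% of all genes. Same-numbered libraries deviated together for *TRPS1* and *CHD4* siRNA (correlation 0.646 over genes) and hardly with the controls (0.0883 and 0.0181). The numbers are thus not shown to pair the silenced libraries with the controls. For the direct comparison the labels do not say what a number shares. Against control siRNA the replicate block changed no count of members by over 1.5 times, and the call it changed among the named genes was that of *CRIM1* upon *CHD4* silencing (−1.01, past the threshold). Members with a peak numbered 4 within 10 kb, 2 inside the gene and 2 by nearest gene, against 7.44%, 4.50% and 5.68% of all genes. Of the 29 members with a promoter entry, 1 had a peak within 5 kb of the start. The share of all genes for that setting was not counted. A stricter peak score was not run because the list holds no score. Small values changed sign. *STK4* upon *TRPS1* silencing was 0.0807 with library sizes alone, 0.0031 with over 2 CPM in every library and −0.22 to 0.13 with 1 replicate left out. *CHD4* upon *TRPS1* silencing was 0.093, 0.0207 and −0.10 to 0.0605 in the same order. *FAT1* upon *CHD4* silencing was −0.0055 without a filter and −0.29 to 0.30 with 1 replicate left out. With 1 replicate left out, *PTPN14* and *YAP1* upon *TRPS1* silencing ran from −0.0471 to 0.67 and from −0.0418 to 0.65, and *YAP1*, *TEAD3* and *TRPS1* upon *CHD4* silencing from −0.0898 to 0.59, −1.39 to 0.0519 and −0.20 to 0.49. In the direct comparison *AMOTL1* ran from −0.24 to 0.17 and *CRIM1* from −0.14 to 0.66. Where an arm had 1 library, it was assumed to vary like the other group. Of 452 values under alternatives, 414 kept their direction and side of the threshold. Library sizes alone moved the median of all genes from −0.02 to 0.10 and 0.11 against the controls. The causes were not tested.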
